A study of Lens culinaris with 20 samples.

Results

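Young green tissue of lentil (Lens culinaris), a grain legume, was set against mature green tissue: 3 small-RNA libraries labelled shoots against 3 labelled mature leaves, out of 20 libraries of 7 tissues. The members were chosen by label alone, and every miRNA in the deposited table was considered. The labels name only the tissue. Neither cultivar, plant age, growth conditions nor treatment is stated in them, and RNA came from pooled material per the labels' protocols, so spread between single plants is not measured. A shoot library may hold stem, apex and young leaves, but the labels do not state its parts. In such bulk samples, fewer cells of a type and less RNA per cell cannot be told apart. Whether replicate libraries stem from different plants or pools is not stated, so the p-values cover the spread among these libraries only, and that spread may be technical.

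Plant miRNAs are cut from hairpin precursors as a duplex of a 5p and a 3p arm. Usually 1 arm is kept by ARGONAUTE and guides the cutting or silencing of mRNAs, and the other arm is degraded. In green tissue, miR156 and miR172 are known for opposite courses over the change from juvenile to adult growth, through SPL and AP2-like factors, and miR319 and miR164 for limiting TCP and NAC factors in growing leaves. Copper-responsive miRNAs such as miR398 and miR408 silence copper proteins.

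The mature sequences below are those on which the comparison turned, as deposited in DNA letters, 5′ to 3′, with the seed (bases 2 to 8) in capitals. They are shown to let members of 1 family be told apart, and names are as the table gives them, with suffixes for added, lost or changed bases against a known miRNA.
ath-miR156a-5p_L+1: tTGACAGAagagagtgagcac
gma-miR156b_L+1R-1: tTGACAGAagagagagagcac
ath-miR172a: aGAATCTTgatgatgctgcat
aly-miR172b-5p_1ss7CG: gCAGCAGCatcaagattcaca
gma-miR319f_1ss17TC: tTGGACTGaaggggcccctt
mtr-miR319a-3p_R+1: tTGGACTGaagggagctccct
gma-miR4414a-3p_L+1_1ss10TA: aTCCAACGaagcgggagctgc
ath-miR164a: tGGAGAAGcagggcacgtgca
gma-miR171k-3p: tTGAGCCGcgccaatatcact
mtr-MIR171b-p3_1ss20TC: tTGAGCCGcgtcaatatctcg
mtr-miR171e-5p: cGATGTTGgtgaggttcaatc
mtr-miR398a-5p_L-1R+1_1ss8CA: gAGTGAAActgagaacacaaga
ath-miR398a-3p_L+1R-1: tTGTGTTCtcaggtcacccct
ath-miR390a-5p: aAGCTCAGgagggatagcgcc
gma-miR391-5p_R-1_1ss20TC: tACGCAGGagagatgacgccg
ath-miR399b: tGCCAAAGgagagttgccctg
mtr-miR399b: tGCCAAAGgagagctgccctg
mtr-miR5232_L+1R-1_1ss21AG: aTACATGTcgctctcacctgg
mtr-miR5559-5p: tACTTGGTgaattgttggatc
mtr-miR2119_1ss13GC: tCAAAGGGaggtctggagtag

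Library totals were 105279, 141117 and 326712 reads in shoots 1, 2 and 3, and 531473, 104497 and 74113 reads in mature leaves 1, 2 and 3. Few values lie between 0 and 5 reads: 13 of 3892 values above 0 in entries that share no reads, and 61 of 1127 among the tested features of the 6 libraries. A 0 therefore stands for a few reads at most rather than for absence, and 5 reads, which equal 16.8 to 44.2 CPM in the shoot libraries and 18.5 to 61.0 CPM in the mature leaf libraries, were taken as the floor for bounds. CPM here are taken over the library size after TMM adjustment, TMM being a scaling that assumes most features equal between libraries. Mature leaves 1 stood apart: its TMM factor was 0.508, against 0.913 to 1.11 in the other 5 libraries. Relative to the mean of mature leaves 2 and 3, its family levels among the 10 most abundant families ran from a log2 difference of -2.14 for miR8175 to 1.72 for miR398. By library size alone the same differences ran from -3.21 to 0.66, and those of miR166, miR164 and miR319 turned from above 0 to below 0. Those of miR5368 and miR8175 were below 0 by either scaling. Values without mature leaves 1 are therefore given beside most called results. Spearman correlations across 323 features, which are not independent replicates, were 0.899 to 0.938 within shoots, 0.846 to 0.923 within mature leaves and 0.776 to 0.823 between the tissues. Of the families that earlier results place in roots or in flowers, miR4415, miR397 and miR858 were listed at 0 in all 6 libraries, miR395 was listed at 0 in the shoots, and miR10423 was present throughout, at 564 to 2458 CPM in shoots and 367 to 1586 CPM in mature leaves.

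Features are distinct mature sequences, and 621 of the 1464 repeated the counts of another in every library. These repeats were kept, so a count of features can hold the same reads more than once. Of 1464 features, 323 passed the filter on low counts over all tissues and were tested. A further 1141 were not tested. Of these, 800 were listed at 0 in all 6 libraries, 0 were above 0 in all 6, and the highest value in any of the 6 was 49 reads. Among the 323 tested, 49 differed between shoots and mature leaves (15.2%; edgeR quasi-likelihood test, Benjamini-Hochberg adjusted p under 0.05 and a log2 change of 1 or more either way). 27 were higher in shoots (8.36%) and 22 were lower (6.81%), while 68 of the tested features were listed at 0 in all 6 libraries. Without mature leaves 1, 48 of 312 features were called (15.4%), 29 higher (9.29%) and 19 lower (6.09%) in shoots, and 39 of the 49 kept their call and direction. Scaled by the authors' own factors, 52 were called (16.1%) and the split turned to 20 higher (6.19%) and 32 lower (9.91%), with the median log2 fold change moved by -0.32. Without shoots 3, the shoot library with the most reads, 32 features were called.

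Summed by family, 20 of 54 families differed (37.0%): 8 were higher in shoots (14.8%) and 12 lower (22.2%). The groups did not overlap in 22 families (40.7%). Without mature leaves 1, 16 of 53 families were called (30.2%), and 15 of the 20 kept their call and direction. The families miR3630, miR5083, miR162, miR395 and miR6173 lost it and miR394 gained one. With 3 libraries against 3, an exact permutation test on a single value cannot give a p below 0.1, so shares and ratios below are descriptions.

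**Figure D1:**
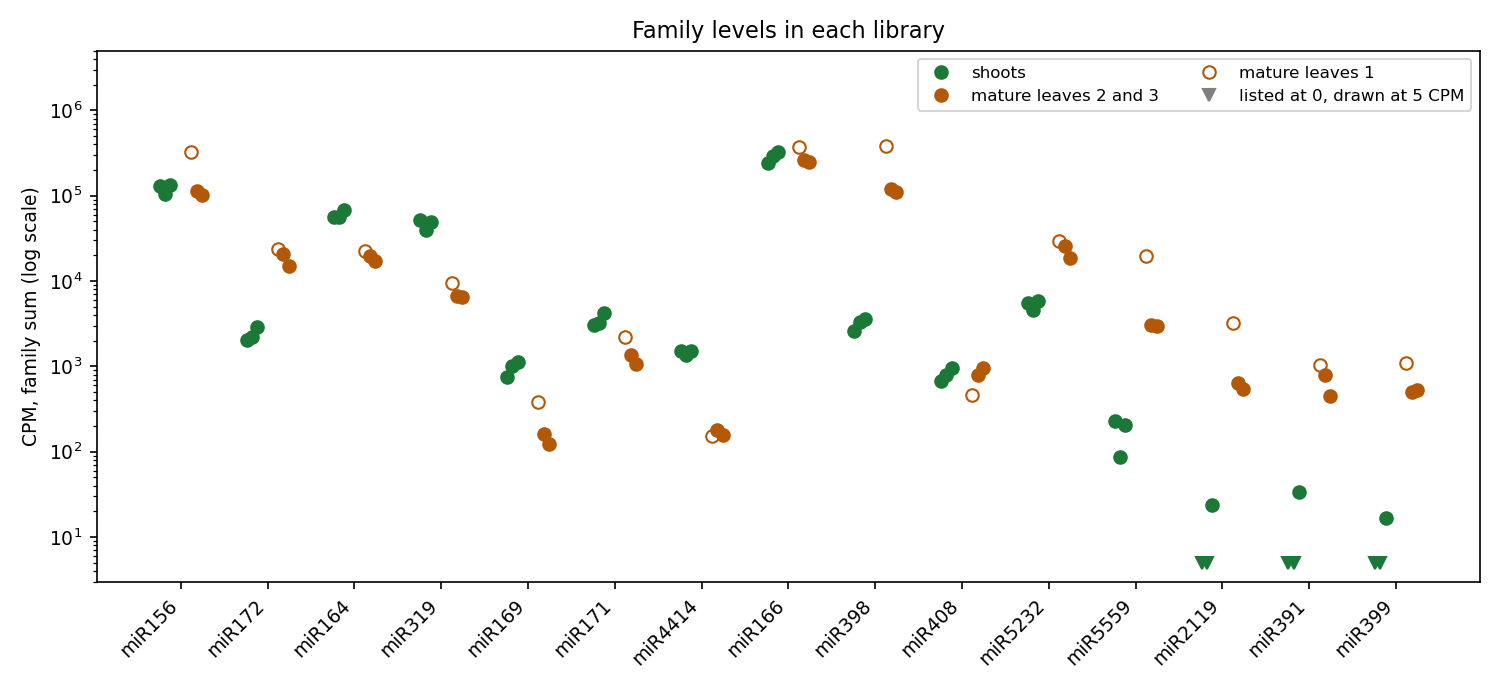
Level of 15 miRNA families in each library, in CPM on a log scale; shoots are the green points on the left of each pair, mature leaves the brown points on the right, with mature leaves 1 as an open circle. miR398 sits between 2573 and 3558 CPM in shoots and between 110642 and 381062 CPM in mature leaves, whereas miR408 overlaps.

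Of the 2 phase-change families, miR172 was lower in shoots and miR156 did not pass the test. The miR172 family, which represses AP2-like factors, was at 2060, 2202 and 2899 CPM in shoots, against 23748, 20881 and 14925 CPM in mature leaves. All 3 shoot libraries lay below all 3 mature leaf libraries, and their mean was 0.12 of that of mature leaves. The log2 fold change was -3.05 ± 0.43 (SE; edgeR, adjusted p = 3.71e-06), and -2.67 without mature leaves 1 (adjusted p = 4.6e-05). The miR156 family, which represses SPL factors, was at 129064, 104995 and 132471 CPM in shoots, against 328109, 112997 and 102460 CPM in mature leaves. Its groups overlapped, and its log2 fold change was -0.57 ± 0.39 (adjusted p = 0.335) with all libraries and 0.44 (adjusted p = 0.362) without mature leaves 1, so no direction is given. Set against each other within a library, which needs no scaling, miR156 had 62.6, 47.7 and 45.7 reads per miR172 read in shoots, against 13.8, 5.41 and 6.87 in mature leaves. The ratio was higher in all shoots than in all mature leaves, by 5.98-fold between means, or 8.47-fold without mature leaves 1 (exact permutation p = 0.1, the smallest possible, and 0.131 after adjustment over the 17 ratios computed, which were chosen after their values were seen). Of these 17 ratios, 13 did not overlap between the tissues and 4 did.

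Within miR172, 1 feature from the arm opposite the guide was listed in every mature leaf library and at 0 in every shoot library. The guide ath-miR172a was at 1892, 1934 and 2552 CPM in shoots, against 17970, 16360 and 11132 CPM in mature leaves, a log2 fold change of -2.83 ± 0.48 (adjusted p = 4.43e-04), or -2.45 without mature leaves 1. The feature aly-miR172b-5p_1ss7CG, whose sequence lies on the other side of a precursor that also holds ath-miR172a, was listed at 0 in all 3 shoots, against 5226, 3955 and 3560 CPM in mature leaves. Against a floor of 5 reads in each shoot library it was at least 135-fold lower in shoots, or at least 119-fold without mature leaves 1. The precursor as deposited is shown because both arms can be read in it, in capitals.
miR172 precursor: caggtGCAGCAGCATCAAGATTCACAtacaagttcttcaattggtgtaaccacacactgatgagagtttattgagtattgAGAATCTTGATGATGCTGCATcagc
Per 100 reads of ath-miR172a, the shoots had 0 reads of the 5p feature, where 5 reads would have been 2.34, 1.74 and 0.659 per 100. The mature leaves had 29.1, 24.2 and 32.0. Other 5p features of the family were present in both tissues and did not pass: aly-miR172b-5p_2ss2CT7CT had 0, 15 and 23 reads in shoots, against 40, 11 and 0 in mature leaves, and aly-miR172c-5p had at most 4 reads in any of the 6 libraries. A form of the guide that differs by T21G at its last base, ath-miR172a_1ss21TG, made up 8.88, 7.64 and 10 reads per 100 of ath-miR172a in shoots, against 1.94, 2.37 and 2.08 in mature leaves.

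Within miR156, the 3 most abundant features, mtr-miR156b-5p, ath-miR156a-5p_L+1 and mtr-miR156e, did not pass. A less abundant member did: gma-miR156b_L+1R-1, named after its values were seen, was at 442, 490 and 683 CPM in shoots, against 17147, 5919 and 5182 CPM in mature leaves. Every shoot library lay below every mature leaf library, with a log2 fold change of -4.12 ± 0.50 (adjusted p = 1.16e-05), or -3.11 without mature leaves 1. Counting from 1 at the 5′ end, its sequence differs from ath-miR156a-5p_L+1 by T15A, and both share the seed TGACAGA. Per 100 reads of ath-miR156a-5p_L+1, shoots had 1.37, 1.51 and 1.73 reads of it, against 14.4, 16.6 and 15.7 in mature leaves, so the groups did not overlap and mature leaves 1 was close to the other libraries of its tissue. Of 20 miR156 features tested, 4 were called, 2 higher and 2 lower in shoots, beside 15.2% called over all features, 8.36% higher and 6.81% lower.

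Of the 8 leaf growth and development families, 4 were higher in shoots, 0 were lower and 4 did not pass, where 14.8% of all families tested were higher and 22.2% lower. Their median log2 fold change was 1.0, against -0.02 over the 47 families above 0 in both tissues, and without mature leaves 1 there were 5 higher. miR319, which represses TCP factors of leaf growth, was at 51786, 39820 and 48825 CPM in shoots, against 9506, 6599 and 6584 CPM in mature leaves. The groups were well apart, at a log2 fold change of 2.63 ± 0.41 (adjusted p = 1.35e-05), and 3.09 without mature leaves 1. miR164, which represses NAC factors of organ boundaries, was at 56358, 56009 and 67434 CPM in shoots, against 22435, 19843 and 17180 CPM in mature leaves. Again no libraries overlapped, and its log2 fold change was 1.60 ± 0.32 (adjusted p = 1.93e-04), or 1.94 without mature leaves 1. All 4 of its called features, out of 9 tested, were higher in shoots, beside 8.36% higher over all features tested. The minor forms ath-miR164a_1ss21AT (3.13 ± 0.72, adjusted p = 0.00395) and ath-miR164a_R+1 (5.36 ± 0.96, adjusted p = 5.76e-04) share the seed of ath-miR164a and were among them. The second was at 159.2, 201 and 393.4 CPM in shoots against 11.1, 0 and 0 CPM in mature leaves. These mature leaf values stand for 3, 0 and 0 reads, under the floor of 5 reads, so the size of its fold is uncertain. Without mature leaves 1 the first was at 3.08, and the second was listed at 0 in the mature leaves and stayed called (adjusted p = 9.03e-04). Another minor form, ath-miR164a_1ss19GT, was at 10.1 to 26.5 CPM in shoots, listed at 0 in mature leaves and did not pass.

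miR169, which represses NF-YA subunits, was at 743, 1001 and 1110 CPM in shoots, against 378, 160 and 122 CPM in mature leaves. Its log2 fold change of 2.07 ± 0.63 (adjusted p = 0.0108) passed the test, but not without mature leaves 2 (adjusted p = 0.0614) or mature leaves 3 (adjusted p = 0.0639). Without mature leaves 1 it was 2.98 (adjusted p = 9.63e-04). miR171, which represses GRAS factors of the HAM group, was at 3086, 3223 and 4230 CPM in shoots, against 2222, 1340 and 1061 CPM in mature leaves. That call, at a log2 fold change of 1.18 ± 0.40 (adjusted p = 0.0208), was lost without shoots 3 (adjusted p = 0.0839), without mature leaves 2 (0.0916) or 3 (0.109) and under the authors' scaling (0.0966). Leaving out mature leaves 1 gave 1.79 (adjusted p = 8.98e-04).

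The other families of the list, miR159, miR166, miR396 and miR394, did not pass. miR166, which represses HD-ZIP III factors, was the most abundant family of the shoots, at 243034, 291623 and 326586 CPM in shoots, against 375940, 261433 and 246098 CPM in mature leaves. Its log2 fold change was -0.04 ± 0.32 (adjusted p = 1.0), and 0.43 (adjusted p = 0.316) without mature leaves 1. miR159, which represses MYB factors, was at 118118, 117451 and 140972 CPM in shoots, against 318692, 113139 and 95120 CPM in mature leaves, and its sign turned from -0.48 to 0.52 without mature leaves 1 (adjusted p = 0.38 and 0.14). miR396, which represses GRF growth factors, did likewise, from -0.32 to 0.64 (adjusted p = 0.628 and 0.106). miR394, which represses the F-box gene LCR, was at 1662, 1041 and 1681 CPM in shoots, against 1187, 680 and 598 CPM in mature leaves. It passed only without mature leaves 1 among the fits that leave out 1 library, at 1.45 (adjusted p = 0.0316), against 0.82 ± 0.48 (adjusted p = 0.244) with all of them.

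**Figure D2:**
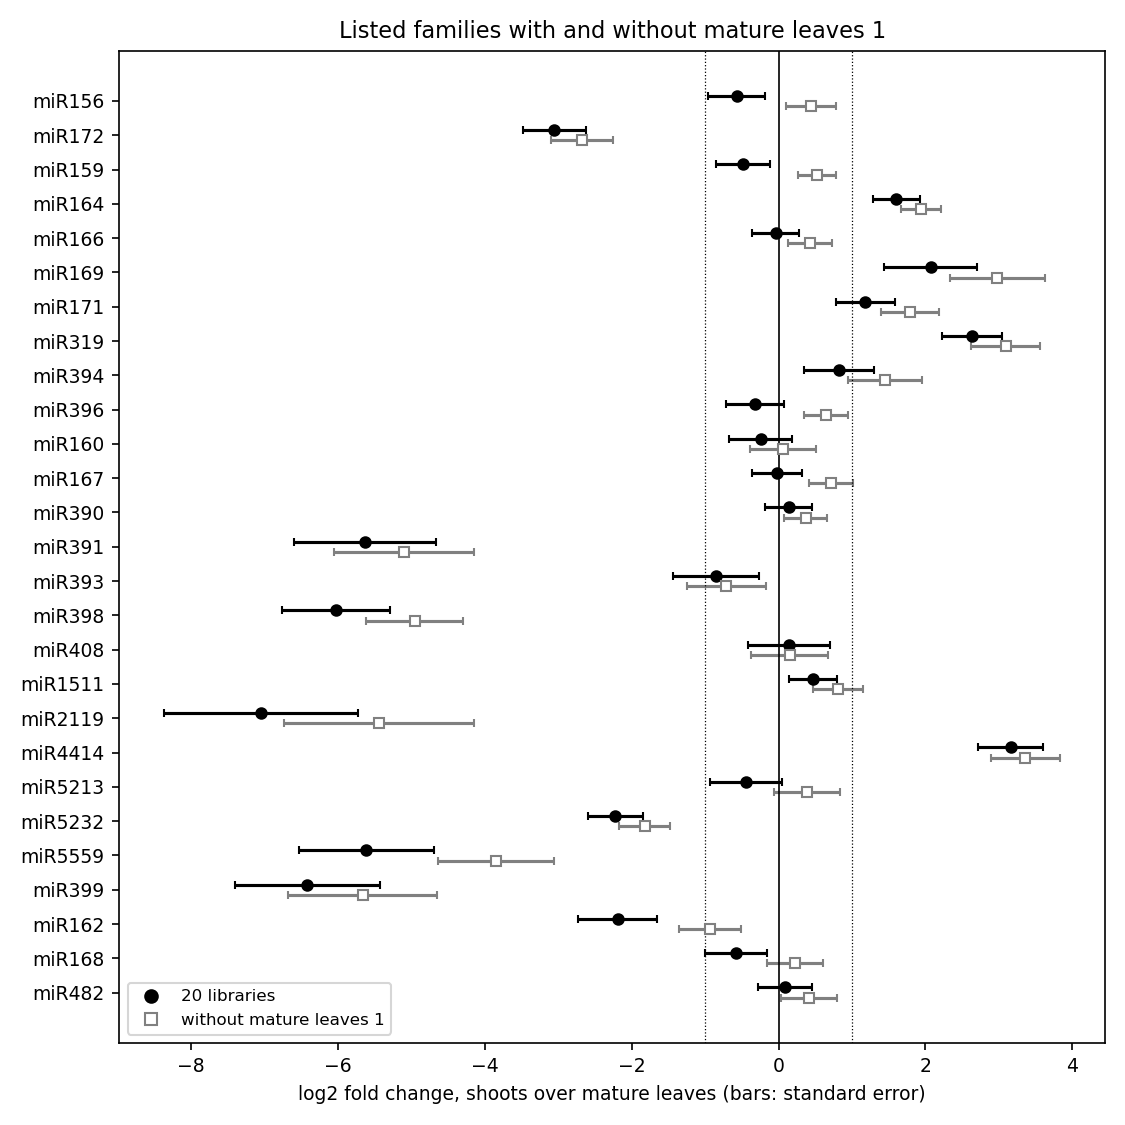
Log2 fold change of listed families, shoots over mature leaves, with standard errors, for all libraries (filled circles) and without mature leaves 1 (open squares); dotted lines mark an absolute value of 1. miR156, miR159, miR160, miR166, miR167, miR168, miR396 and miR5213 lie on opposite sides of 0 in the 2 fits, and none of them passed in either. The other families shown, among them miR172, miR319, miR398 and miR4414, do not.

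Inside miR319, the share of the leading feature differed between tissues. gma-miR319f_1ss17TC made up 76.6%, 71.9% and 73.4% of miR319 reads in shoots, against 53.1%, 54.8% and 60.6% in mature leaves, and mtr-miR319a-3p_R+1 made up most of the rest. Both were higher in shoots in level: gma-miR319f_1ss17TC by a log2 fold change of 3.04 ± 0.50 (adjusted p = 2.81e-04) and mtr-miR319a-3p_R+1 by 1.78 ± 0.38 (adjusted p = 0.00228), 3.46 and 2.26 without mature leaves 1. They share the seed TGGACTG, of which 2 of 5 tested features were called, both higher, beside 8.36% higher over all features tested. Per read of mtr-miR319a-3p_R+1, shoots had 3.77, 3.19 and 3.41 reads of gma-miR319f_1ss17TC, against 1.33, 1.34 and 1.77 in mature leaves. A shifted form, ath-miR319c_L+1R-1, was at 79.6, 181 and 145 CPM in shoots and listed at 0 in all mature leaves, so at least 3.20-fold higher in shoots, or at least 2.50-fold without mature leaves 1.

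The table gives gma-miR319f_1ss17TC and gma-miR4414a-3p_L+1_1ss10TA as both in 1 precursor, printed here as deposited with both mature sequences in capitals, miR4414 on the 5′ side.
miR4414 and miR319 precursor: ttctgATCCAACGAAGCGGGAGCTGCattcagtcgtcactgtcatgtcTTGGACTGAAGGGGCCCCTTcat
gma-miR4414a-3p_L+1_1ss10TA, a legume family in the names, was at 1512, 1363 and 1513 CPM in shoots, against 152, 179 and 158 CPM in mature leaves. The shoot libraries lay above the mature leaf libraries without overlap, at a log2 fold change of 3.16 ± 0.40 (adjusted p = 1.97e-05), or 3.36 without mature leaves 1. Per 100 reads of gma-miR319f_1ss17TC, there were 3.81, 4.76 and 4.22 reads of it in shoots, against 3.01, 4.96 and 3.98 in mature leaves. These ratios overlapped (exact permutation p = 0.7), with means of 4.26 ± 0.475 in shoots and 3.98 ± 0.973 in mature leaves (SD, n = 3 each).

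In miR171, the leading 3p feature differed between tissues. gma-miR171k-3p was at 1892, 1477 and 2152 CPM in shoots, against 152, 198 and 146 CPM in mature leaves, a log2 fold change of 3.47 ± 0.46 (adjusted p = 2.52e-05), or 3.66 without mature leaves 1. The feature mtr-miR171e-5p, from the same precursor, was at 221, 296 and 299 CPM in shoots, against 25.96, 0 and 0 CPM in mature leaves, at 4.38 ± 0.80 (adjusted p = 6.33e-04). The value of mature leaves 1 stands for 7 reads. Without that library the mature leaves were listed at 0 and no fold is given.
miR171 precursor: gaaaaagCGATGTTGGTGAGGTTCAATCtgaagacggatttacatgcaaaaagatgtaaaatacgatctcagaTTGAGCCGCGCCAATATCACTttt
The other feature, mtr-MIR171b-p3_1ss20TC, shares the seed TGAGCCG and differs from gma-miR171k-3p by C11T, A19T and T21G, and its log2 fold change did not pass. As a share of miR171 reads, gma-miR171k-3p made up 61.3%, 45.8% and 50.9% in shoots, against 6.84%, 14.8% and 13.8% in mature leaves. mtr-MIR171b-p3_1ss20TC made up 14.3%, 14.0% and 16.4% in shoots, against 70.3%, 64.1% and 67.8% in mature leaves. The ratio of gma-miR171k-3p to mtr-MIR171b-p3_1ss20TC was 4.28, 3.28 and 3.11 in shoots, against 0.0974, 0.231 and 0.203 in mature leaves, 20.1-fold apart between means and 16.4-fold without mature leaves 1. In all 3 shoots gma-miR171k-3p was the more abundant of the pair, and in all 3 mature leaves mtr-MIR171b-p3_1ss20TC was.

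In miR166, the guide mtr-miR166a did not pass, at 207464, 246216 and 276443 CPM in shoots, against 306445, 226967 and 207494 CPM in mature leaves (-0.02 ± 0.28, adjusted p = 1.0). The passenger-arm feature mtr-miR166e-5p was at 6375, 6910 and 8572 CPM in shoots, against 2448, 1038 and 1024 CPM in mature leaves. Its log2 fold change was 2.27 ± 0.52 (adjusted p = 0.00395), or 3.07 without mature leaves 1. Another 5p feature with its seed, aly-miR166g-5p, did not pass, at -0.78 ± 0.49 (adjusted p = 0.351). A minor 3p form with the seed of mtr-miR166a, ath-miR166a-3p_2ss20CT21CT, was also higher in shoots. Its log2 fold change was 1.5 ± 0.36 (adjusted p = 0.00643), or 2.03 without mature leaves 1. The share of the 5p arm in miR166 was 3.66%, 3.05% and 3.45% in shoots, against 1.31%, 0.942% and 0.966% in mature leaves. In miR160 it was the other way: the 5p guide arm made up 91.3%, 94.4% and 94.2% in shoots, against 64.3%, 82.1% and 79.9% in mature leaves. There the 3p feature ath-miR160a-3p_2ss6TC21AG was lower in shoots, at -2.31 ± 0.73 (adjusted p = 0.038), but not without mature leaves 1 (adjusted p = 0.2), while the guide mtr-miR160a did not pass. Of 16 families with reads typed to both arms in all 6 libraries, miR319, miR394 and miR8175 were left out because features typed to opposite arms overlap in sequence. Of the other 13, 6 had arm shares that did not overlap between tissues, beside miR160 and miR166 also miR168, miR390, miR5368 and miR6173 (exact permutation p = 0.1 each, adjusted p = 0.217).

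**Figure D3:**
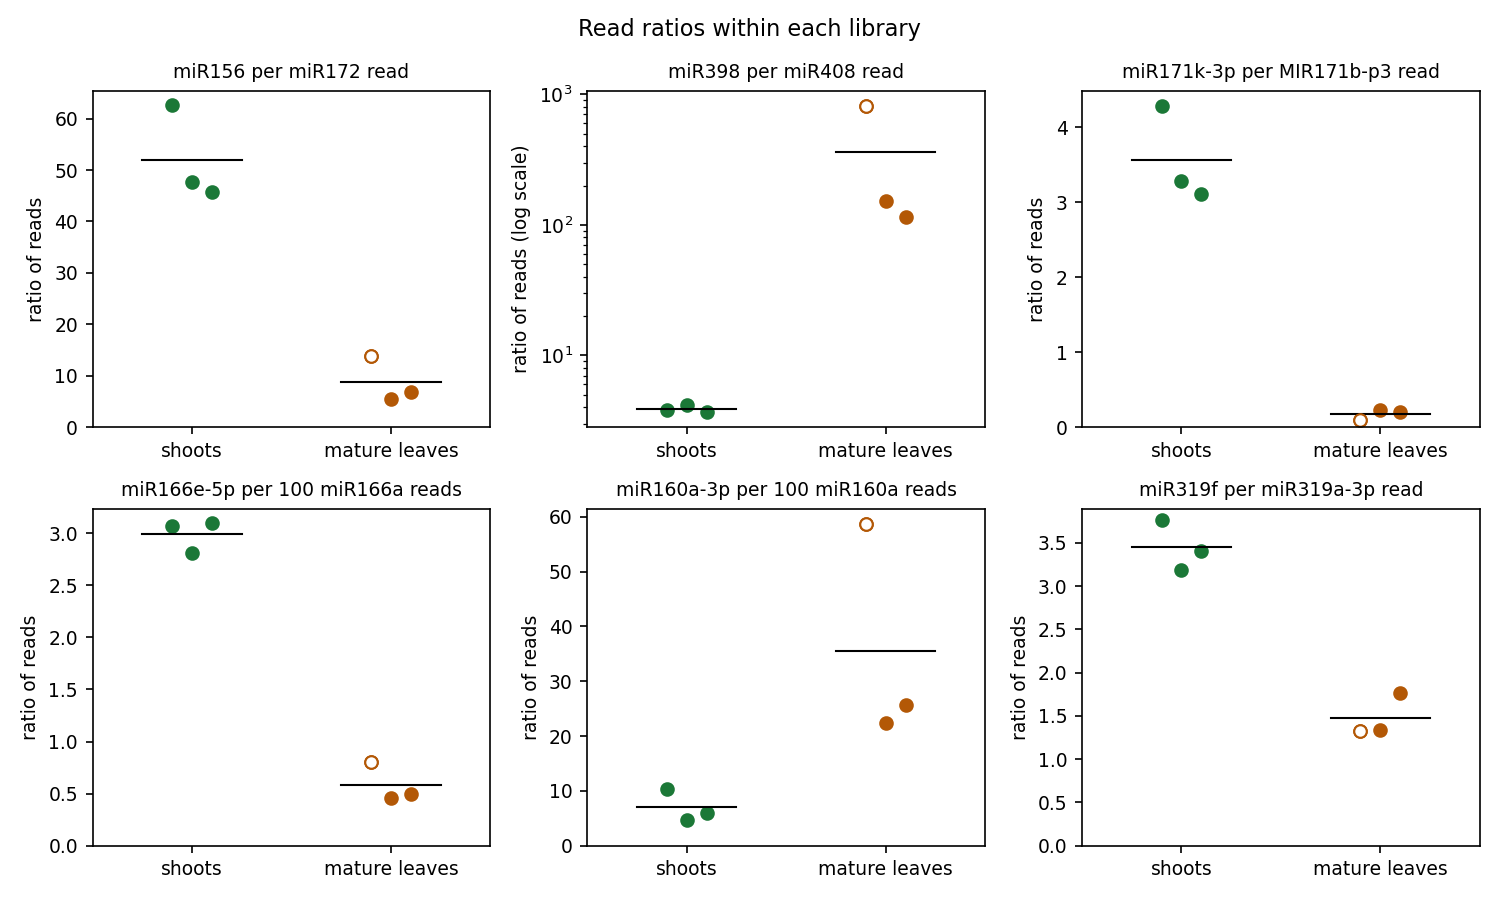
Reads of 1 miRNA relative to another in the same library, which needs no scaling between libraries; points are libraries, lines are means, and the open circle is mature leaves 1. These 6 were chosen among the 13 of 17 computed ratios that did not overlap between tissues, and each separates the shoots (left) from the mature leaves (right), with miR171k-3p at 3.11 to 4.28 and 0.0974 to 0.231 reads per MIR171b-p3 read.

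The auxin and tasiRNA list had 0 of 5 families higher and 1 lower in shoots, with a median log2 fold change of -0.24. Over all families 14.8% were higher and 22.2% lower, with a median of -0.02, so the count is near that of families at large. miR391, a relative of miR390 in Arabidopsis, was at 0, 0 and 33.6 CPM in shoots, against 1024, 793 and 451 CPM in mature leaves, a log2 fold change of -5.63 ± 0.97 (adjusted p = 4.89e-05), or -5.10 without mature leaves 1. The shoot value rests on 10 reads of shoots 3, without which all shoots were listed at 0. miR390, which triggers TAS3 tasiRNAs that act on auxin response factors, was at 25226, 23663 and 29179 CPM in shoots, against 23222, 24959 and 22911 CPM in mature leaves. Its groups overlapped, at 0.14 ± 0.32 (adjusted p = 0.875). miR160 and miR167, which repress auxin response factors, and miR393, which represses the TIR1/AFB receptors, did not pass. miR393 was the farthest of these from 0, at -0.85 ± 0.58 (adjusted p = 0.335). It was at 371, 269 and 383 CPM in shoots, against 519, 755 and 573 CPM in mature leaves. Its leading feature, the 3p gma-MIR393c-p3, was at -1.53 ± 0.85 (adjusted p = 0.275). The 5p feature ath-miR393a-5p_1ss22CT went the other way, at 1.07 ± 0.72 (adjusted p = 0.396). Neither passed, and the family sum gives no direction for the 5p feature.

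Of the copper families, miR398 was lower in shoots and miR408 did not pass. miR398, which silences copper/zinc superoxide dismutases, was at 2573, 3310 and 3558 CPM in shoots, against 381062, 120766 and 110642 CPM in mature leaves. The highest shoot library was below the lowest mature leaf library, at a log2 fold change of -6.02 ± 0.73 (adjusted p = 9.82e-07). Mature leaves 1 was the highest of its tissue, and without it the value was -4.95 (adjusted p = 1.57e-05). Both arms were lower: mtr-miR398a-5p_L-1R+1_1ss8CA by -6.04 ± 1.12 (adjusted p = 7.17e-04) and ath-miR398a-3p_L+1R-1 by -5.99 ± 0.63 (adjusted p = 1.85e-06), and by -4.31 and -5.38 without mature leaves 1. The 5p arm took 44.7%, 52.9% and 48.7% of miR398 reads in shoots, against 61.0%, 28.4% and 35.1% in mature leaves. The groups overlapped, and mature leaves 1 was the library richest in the 5p arm. Both arms lie in the precursor below.
miR398 precursor: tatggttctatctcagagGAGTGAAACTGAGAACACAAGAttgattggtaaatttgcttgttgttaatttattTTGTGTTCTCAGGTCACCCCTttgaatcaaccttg
miR408, which silences plantacyanin and laccases, was at 672, 792 and 962 CPM in shoots, against 467, 793 and 963 CPM in mature leaves. It overlapped, at 0.14 ± 0.56 (adjusted p = 0.957). Within a library, miR398 had 3.83, 4.18 and 3.70 reads per miR408 read in shoots, against 815, 152 and 115 in mature leaves, 92.5-fold apart between means and 34.2-fold without mature leaves 1. miR397, which silences laccases, was listed at 0 in all 6 libraries. The list holds 4 families, 3 of which were tested.

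Of 12 legume families listed, 10 were in the table and 8 were tested: 1 was higher in shoots, 3 were lower and 4 did not pass, beside 14.8% higher and 22.2% lower over all families. The median log2 fold change was -1.33 over the 6 above 0 in both tissues, against -0.02 over all such families. The higher family was miR4414, described above. Functions of miR5232 and miR5559 are not stated here. miR5232 was at 5500, 4580 and 5781 CPM in shoots, against 29449, 25667 and 18607 CPM in mature leaves. Its libraries did not overlap, at -2.22 ± 0.37 (adjusted p = 2.83e-05), or -1.82 without mature leaves 1. miR5559 was at 230, 87.3 and 205 CPM in shoots, against 19520, 3087 and 2963 CPM in mature leaves. It was lower in shoots by -5.61 ± 0.92 (adjusted p = 2.95e-05), and by -3.85 without mature leaves 1, which held the highest level by a wide margin.

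miR2119, which in common bean comes from a precursor shared with miR398, was at 0, 0 and 23.5 CPM in shoots, against 3245, 633 and 537 CPM in mature leaves. The value of shoots 3 stands for 7 reads. Its log2 fold change was -7.04 ± 1.32 (adjusted p = 1.38e-04), or -5.44 without mature leaves 1 (adjusted p = 0.00239). Per 100 reads of miR398, shoots had 0, 0 and 0.662 reads of miR2119, against 0.852, 0.524 and 0.485 in mature leaves, and the ratios overlapped. In shoots, 5 reads of miR2119 would have been 1.72, 1.01 and 0.473 per 100. The overlap therefore cannot tell whether the proportion differed. Mature leaves 1 had the highest level of both miR398 and miR2119. miR1511 did not overlap, at 14863, 10354 and 11454 CPM in shoots against 9806, 9091 and 7523 CPM in mature leaves, but did not pass (0.47 ± 0.33, adjusted p = 0.351). miR5213, miR1514 and miR4415 did not pass either.

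The phosphate and sulfate list had 2 families tested and both were lower in shoots, beside 22.2% of all families. miR399, which represses PHO2 and so promotes phosphate uptake, was at 0, 0 and 16.8 CPM in shoots, against 1090, 500 and 524 CPM in mature leaves. All shoots were at or under 5 reads, and the log2 fold change was -6.41 ± 0.99 (adjusted p = 1.30e-05), or -5.66 without mature leaves 1. Of its 5 features tested, 4 were called, all lower in shoots, beside 6.81% lower over all features tested. ath-miR399b and mtr-miR399b share the seed GCCAAAG and differ by T14C. mtr-miR399b was listed at 0 in all shoots, against 245, 104 and 97.6 CPM in mature leaves, so at least 4.72-fold lower in shoots, or at least 3.19-fold without mature leaves 1. The other 2, mtr-MIR399j-p5_1ss15TC and zma-miR399e-5p, were also listed at 0 in all shoots, with bounds of at least 2.82-fold and 2.23-fold lower, or 2.70-fold and 2.06-fold without mature leaves 1. Without shoots 3 the first lost its call, and the second lost it when any 1 of the 6 libraries was left out. ath-miR399b was at 0, 0 and 16.8 CPM in shoots, against 582, 208 and 268 CPM in mature leaves. miR395, which represses ATP sulfurylase and a sulfate transporter, was listed at 0 in all shoots, against 163, 28.3 and 0 CPM in mature leaves, and its call (adjusted p = 0.00973) was lost without mature leaves 1 (adjusted p = 0.15).

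The small RNA machinery list held miR162, which represses DCL1, and miR168, which represses AGO1. miR162 was at 1167, 1712 and 1527 CPM in shoots, against 13456, 3247 and 3426 CPM in mature leaves. It was lower in shoots by -2.19 ± 0.54 (adjusted p = 0.00193), but by -0.93 (adjusted p = 0.0937) without mature leaves 1, although the groups still did not overlap. Its leading feature, gma-miR162a_R+1, was lower by -2.42 ± 0.53 (adjusted p = 0.00299). That feature stayed called without mature leaves 1, at -1.09 (adjusted p = 0.0403), while gma-MIR162c-p5 did not pass in either fit. miR168 did not pass, and its sign turned from -0.58 to 0.23 without mature leaves 1 (adjusted p = 0.354 and 0.695). miR482, which targets NB-LRR resistance genes, was at 11689, 29808 and 29828 CPM in shoots, against 24349, 18786 and 23801 CPM in mature leaves, with 0.09 ± 0.37 (adjusted p = 0.957).

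Other called families are named here after their values were seen. miR530 was lower in shoots, at 0, 26.9 and 13.5 CPM in shoots against 497, 236 and 305 CPM in mature leaves. Its log2 fold change was -4.59 ± 0.92 (adjusted p = 2.71e-04), or -3.96 without mature leaves 1. The shoot values stand for 0, 4 and 4 reads, under the floor of 5 reads, so the size of this fold is uncertain. miR5770 was also lower in shoots (-2.22 ± 0.53, adjusted p = 0.00159, or -1.52 without mature leaves 1). miR8176 was higher in shoots, at 584, 638 and 673 CPM in shoots against 14.8, 75.5 and 207 CPM in mature leaves (2.81 ± 0.72, adjusted p = 0.00254, or 2.46 without mature leaves 1). miR3630 (1.86 ± 0.58) and miR5083 (1.15 ± 0.40) were higher in shoots and miR6173 (-2.0 ± 0.69) lower, with all 3 calls lost without mature leaves 1 (adjusted p = 0.0623, 0.0623 and 0.0643).

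Among 115 tested features with no family, 6 were called, 5 higher and 1 lower in shoots, a smaller share than the 15.2% called over all features tested. Their names begin with lcum, and no function is known for them here. lcum-miR-22305_643-3p, of 24 nt, was at 345, 698 and 629 CPM in shoots, against 33.4, 47.2 and 0 CPM in mature leaves, a log2 fold change of 4.26 ± 0.87 (adjusted p = 0.00161), or 4.64 without mature leaves 1. lcum-miR-5851_2620-3p was at 1547, 4714 and 4267 CPM in shoots, against 137, 434 and 244 CPM in mature leaves. Although its groups did not overlap, its call at 3.71 ± 1.02 (adjusted p = 0.016) was lost without mature leaves 1 (adjusted p = 0.0584) or 3 (0.0608). lcum-miR-23592_602-3p, called at 3.15 ± 0.98 (adjusted p = 0.0379), lost its call without any 1 of 5 of the libraries, shoots 1 being the exception. Its sequence is nearly that of lcum-miR-5851_2620-3p at an offset of 1 base, so these 2 may not be separate miRNAs. Another such feature, lcum-miR-14959_999-3p, is lcum-miR-5851_2620-3p without its last base. It did not pass (1.56 ± 1.19, adjusted p = 0.495), and its groups overlapped. lcum-miR-38204_319-5p was at 44.2, 154 and 239 CPM in shoots, against 48.2, 0 and 0 CPM in mature leaves, and overlapped through mature leaves 1 alone. Its call (2.84 ± 0.91, adjusted p = 0.0432) was lost without shoots 2 or 3 or mature leaves 2 or 3, and kept without mature leaves 1 (adjusted p = 9.04e-04), where the mature leaves were listed at 0. lcum-miR-19071_768-3p, of 18 nt, was listed at 0 in all shoots, against 44.5, 359 and 366 CPM in mature leaves, at least 8.13-fold lower in shoots, or at least 11.5-fold without mature leaves 1. Its call was lost without shoots 3 (adjusted p = 0.0677). lcum-miR-43844_260-5p, at 33.6 to 97.3 CPM in shoots, was listed at 0 in mature leaves and did not pass. Of 2 minor miR8175 features at 16.8 to 53.1 CPM in shoots and listed at 0 in all mature leaves, ath-miR8175_L+1_1ss14CT did not pass, and ath-miR8175_L+1_1 (adjusted p = 0.0432) lost its call when any 1 of the 6 libraries was left out.

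Most called features were of 21 nt, the usual length of plant miRNAs. Of the 27 higher and 22 lower in shoots, 16 in each direction were of 21 nt, and the median length was 21 nt in both. The share of 21 nt among all tested features was not computed. These lengths are therefore not set against the features at large. The called features carried 44 distinct seeds, of which 4 were shared by 2 or more called features and 0 by features called in opposite directions. Only those 4 seeds could have shown opposite directions, and seeds were not counted over all tested features, so the count is a description. As shares of reads, 21-nt sequences made up 70.7%, 75.7% and 75.3% in shoots, against 73.4%, 77.3% and 75.6% in mature leaves, which overlapped. The share of 20-nt sequences, the length of mtr-miR156b-5p and gma-miR319f_1ss17TC, was 12.3%, 8.20% and 9.13% in shoots, against 6.73%, 5.50% and 5.23% in mature leaves. That share was higher in all shoots than in all mature leaves (exact permutation p = 0.1, adjusted p = 0.8 over the length classes). The 22-nt share, which holds mtr-miR398a-5p_L-1R+1_1ss8CA, was 5.87%, 10.6% and 9.18% in shoots, against 18%, 10.1% and 11.9% in mature leaves, and overlapped.

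**Figure D4:**
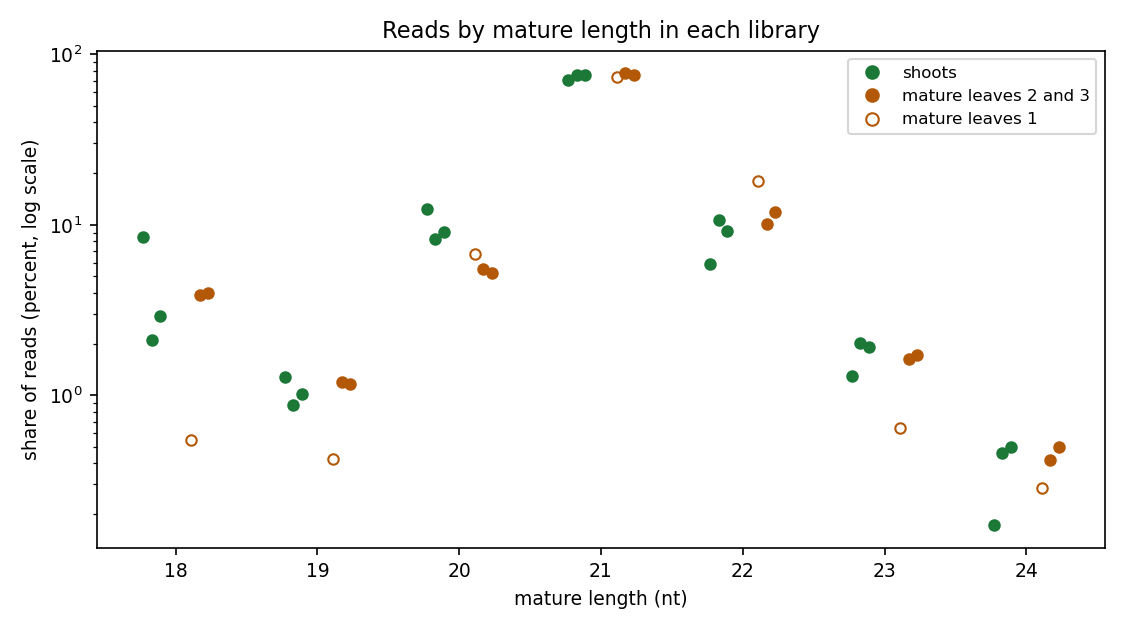
Share of reads by mature length in each library, in percent on a log scale, with shoots left and mature leaves right at each length and mature leaves 1 as an open circle. Only at 20 nt do the tissues not overlap, at 8.20% to 12.3% in shoots and 5.23% to 6.73% in mature leaves.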

How the data were processed

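The deposited table holds 1642 entries, most with both mature and precursor sequence. Per the file headers the raw columns are expected counts (estimated read counts) by the authors, of which 25.8% of values above 0 were not whole (tolerance 0.01), and the normalized columns are a signal the authors made by 1 factor per library. No source used here describes trimming, alignment or miRNA calling. Another 7 lines are not reported here. Entries of 1 sequence were collapsed, leaving 1464 features, and counts were rounded. Families are the number in the name (miR157 in miR156, miR165 in miR166, miR170 in miR171), each distinct count profile summed once.

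Tests were edgeR 4.0.16 quasi-likelihood F-tests (limma 3.58.1, R 4.3.3) over 20 libraries with tissue as the only term, after filterByExpr and TMM, with Benjamini-Hochberg adjustment over all features or families tested. Fold changes are shoots over mature leaves, and SE is from the F statistic. Where 1 tissue was listed at 0 throughout, a fold is a bound against 5 reads per library in that tissue and covers counting error only. Shares and ratios used exact two-sided permutation tests (scipy 1.17.1; Python 3.11.15, numpy 2.4.6, pandas 2.3.3, matplotlib 3.10.9). Counts were also simulated from the mean of each of the 323 features over all 20 libraries. There the test recovered 17 of 36 features changed by a log2 size of 3, 8 of 24 changed by 2, and called 0 of 263 unchanged. The simulation held neither the floor on low counts nor the differing composition of mature leaves 1, so the rates may differ in the 6 libraries.

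The members, lists and tests were chosen with earlier results of these data known. Named were listed families and their leading features, the 8 largest called changes each way among features with a family and at least 100 CPM, 5 each way without one, features listed at 0 in 1 tissue, and the 10 most abundant. Alternatives (DESeq2 1.42.0, other scalings, filters, left-out libraries, a replicate block) are given after the report. Ratios within libraries were added after seeing the data.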

Additional observations from a re-analysis of the deposited data

How the results depend on the processing

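No named log2 fold change called in the comparison changed its sign under any alternative run. Leaving out 1 library at a time gave 32 to 48 features called, 15 to 29 higher and 16 to 22 lower in shoots, and 16 to 20 families, 5 to 9 higher and 9 to 12 lower. The lowest numbers of features higher in shoots came without mature leaves 2 (15), and without shoots 3 or mature leaves 3 (16 each), and of families without mature leaves 3 (5). With only the 6 libraries and without mature leaves 1, an alternative added after seeing the data, 33 features were higher and 26 lower. By DESeq2's Wald test 32 were higher and 24 lower, by library size alone 30 and 19, and with the authors' factors 20 and 32. These factors moved the median by -0.32, library size by 0.36 and leaving out mature leaves 1 by 0.65 on the log2 scale. The cause of these changes was not tested. Same-numbered shoots and mature leaves correlated at -0.203, -0.136 and -0.082 in their deviations, so no pairing by replicate number was seen. With 3 libraries a tissue, these values cannot decide whether same-numbered libraries share a source. A fit with the replicate block gave 39 features, 21 higher and 18 lower, and 17 families, with miR171 not called (adjusted p = 0.0583). Values under about 5 reads are rare in the deposited counts, so changes below that level are not seen. Larger changes can be missed too. On counts simulated from means over all 20 libraries, 8 of 24 features changed by a log2 size of 2 and 17 of 36 changed by 3 were recovered.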
